A study of Arabidopsis thaliana with 24 samples.

Results

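UDP-glycosyltransferases (UGTs) are enzymes that join a sugar, most often glucose, from a UDP-sugar to a small acceptor molecule. In plants the acceptors include salicylic acid, abscisic acid, auxin, cytokinins, flavonols, phenylpropanoids and foreign compounds, and the sugar usually turns an active molecule into a stored, soluble or exported form. Salicylic acid, the hormone of defence against biotrophic pathogens, is itself held in leaves largely as glucose conjugates made by enzymes of this family. The family was taken here as all probe sets of the array that carry a single gene symbol made of UGT and a number, with the brightest probe set of a gene where it had several. This gave 47 genes among 22746 probe sets, each with 1 probe set, in 11 numbered families and 8 phylogenetic groups. Another 3 probe sets that are shared by a UGT gene and a further gene were left out, and 11 further UGT genes of the RefSeq table are not analysed here. All 47 symbols have an entry in the RefSeq gene table (TAIR10.1), from which their chromosome and neighbours were read. Sequences of the genes were not used here.

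The study measured total RNA of Arabidopsis thaliana rosettes on Affymetrix ATH1 arrays, 24 in all, with 4 arrays, called biological replicates by the titles, in each of 6 groups. Plants of accession Col-0 (written Col) and plants with the mil4 mutation, named by the series title MILDEW-INDUCED LESIONS 4, received a spray of water or of BTH at 300 µM. Plants of the sid2 mutant and of the mil4 sid2 double mutant were sprayed with water. BTH, a benzothiadiazole, acts in plants in place of salicylic acid, and sid2 mutants lack the isochorismate synthase that makes most of the salicylic acid formed in defence. All plants were grown at 22 °C with 14 h of light, sprayed 2 days before collection and collected at an age of 4 weeks. The alleles of mil4 and sid2, and whether the rosettes of an array were pooled, are not stated by the labels, so the p-values cover the spread between these samples. Each value below is log2(intensity + 16), from intensities that were scaled on each array to a trimmed mean of 500, and the 4 values of a group stand in the order of replicates 1 to 4, called arrays 1 to 4. A difference is between 2 group means on that scale, with its standard error from limma, and a gene is said to rise or fall where its Benjamini-Hochberg adjusted p over all 22746 probe sets was under 0.05. Such a difference understates the change of a dim gene, and an intensity of 0 would stand at 4.

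Array medians ran from 151.9 to 185.0. Replicate 1 of sid2 stood apart, with the highest median and with 9.61% of its probe sets under an intensity of 16, against 14.2% to 17.93% on the other arrays. Replicate 4 of mil4 with water had a 3′ to 5′ GAPDH signal ratio of 1.648, against 0.651 to 1.227 elsewhere. The Col and mil4 arrays were hybridized on 3 days that each held all 4 of their groups, and the sid2 and mil4 sid2 arrays on another day, so a difference between these sets of genotypes and a day effect cannot be told apart. The BTH arrays of Col and mil4 were washed in other fluidics modules than their water arrays. Neither MIL4 nor ICS1, the gene mutated in sid2, has a probe set under its own name, and no array value here checks the genotype labels. RCA, the leaf marker measured under its own name, had group means of 14.45 to 14.73. The root, flower, trichome, vascular and dividing-cell lists held no gene measured under its name, and the guard-cell list held 2. FAMA lay between 7.81 and 8.32, with BTH differences of -0.47 in Col (adjusted p = 0.0383) and -0.02 in mil4 (adjusted p = 0.95). MUTE, a dim gene with group means of 4.61 to 5.15, differed by 0.40 in Col (adjusted p = 0.583) and -0.27 in mil4 (adjusted p = 0.695). In rosettes, fewer cells of a type and less RNA per cell cannot be told apart.

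Of the 47 genes, 23 passed the test in at least 1 of 10 comparisons and 24 in none. Many members were dim: 24 had at least 1 array under an intensity of 16, and 13 had 12 arrays or more under it, of which 1 passed in any comparison. Among the 23 members that never lay under 16, 19 passed somewhere. The share of all probe sets that passed in at least 1 of the 10 comparisons was not counted. These counts thus describe the members and cannot be set against other genes. The group means of a member spanned 0.13 for UGT80B1, a sterol glucosyltransferase gene, to 4.00 for UGT73D1, with a median span of 0.93. The heat map of group means shows the rises of UGT73D1, UGT87A2 and UGT71B6 in the BTH columns and, in the Col water column, a set of genes of groups E, F and L that lay above the other groups.

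**Figure D1:**
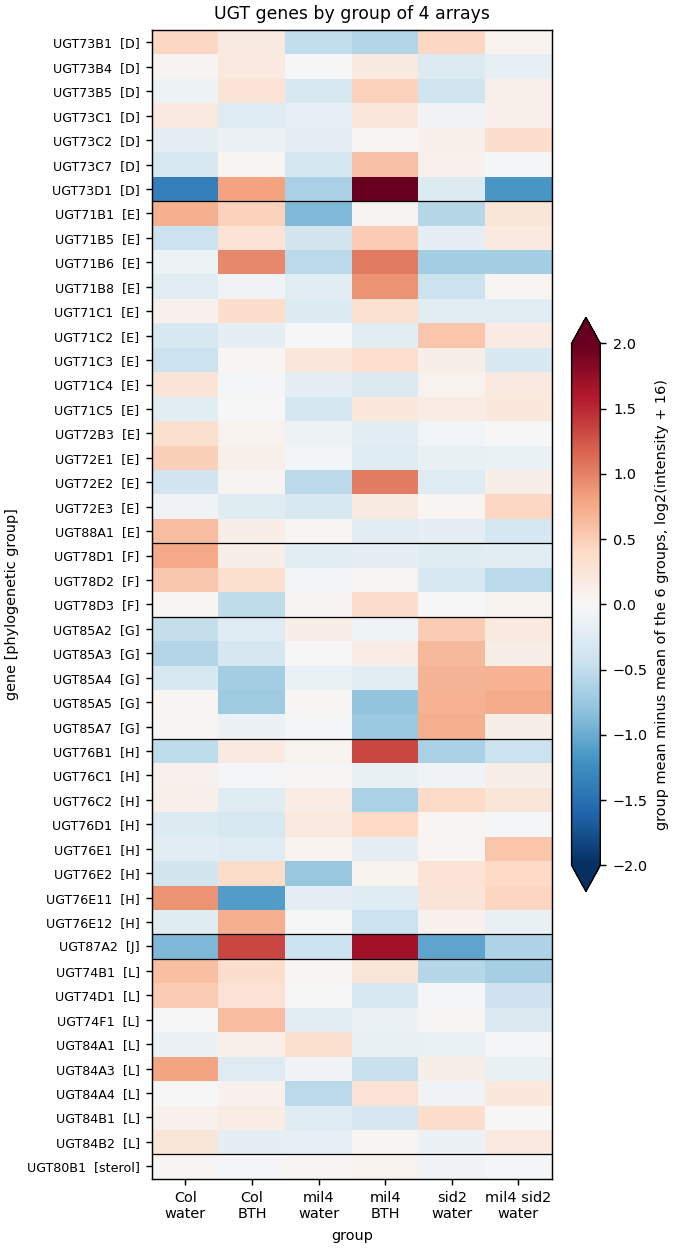
Group means of the 47 UGT genes (rows, by phylogenetic group in brackets) over the 6 groups of 4 arrays (columns), each minus the gene's mean of the 6 group means, in log2(intensity + 16). UGT73D1 ranges over 4.00 between groups and UGT80B1 over 0.13; colours are cut at 2 in either direction.

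In Col, BTH raised 3 of the 47 genes (6.38%, against 6.72% of all probe sets) and lowered 5 (10.6%, against 5.97%). With same-numbered Col arrays taken as pairs in a fit of those arrays alone, it raised 3 and lowered 2. In mil4 it raised 8 (17.0%, against 9.67%) and lowered 2 (4.26%, against 7.77%). UGT87A2, UGT73D1 and UGT71B6 rose in both genotypes and were 3 of the 15 genes that passed in either. The median difference of the members was -0.04 in Col and 0.11 in mil4, beside 0.01 and 0.05 over all probe sets. The share of higher members was near the background in Col. These splits depend on the scaling: with each array centred on its median, which moved the median difference of all probe sets in mil4 by -0.14, 2 members were higher and 8 lower in Col, and 5 higher and 6 lower in mil4. Quantile normalization gave 2 and 7 in Col and 6 and 5 in mil4. Over all probe sets, 52.9% of the calls in Col were higher, against 39.9% with median centring, and in mil4 55.4%, against 31.9% with median centring and 45.1% with quantile normalization.

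**Figure D2:**
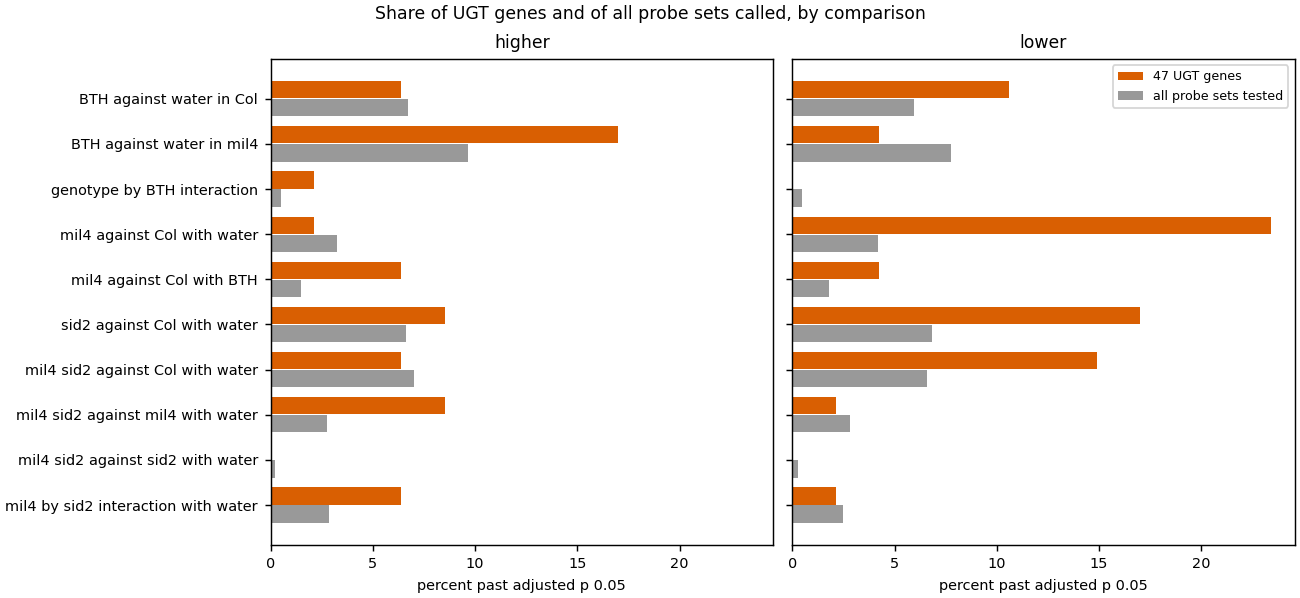
Percent of the 47 UGT genes (orange) and of all 22746 probe sets (grey) that were higher (left) or lower (right) at an adjusted p under 0.05, for each of the 10 comparisons. The widest gap is among genes lower in mil4 than in Col with water, 23.4% of the UGT genes against 4.17% of all probe sets.

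UGT87A2, whose product has been tied to flowering time and to abiotic stress in Arabidopsis, rose in both genotypes. Its values in Col were 8.98, 8.64, 8.14 and 7.91 with water and 10.70, 10.66, 10.64 and 10.61 with BTH. In mil4 they were 8.83, 9.25, 8.52 and 8.92 with water and 11.25, 10.75, 11.36 and 10.61 with BTH. Every BTH array lay above every water array of all 4 genotypes, and sid2 (7.97 to 8.46) and mil4 sid2 (8.33 to 8.95) lay in the range of the other water groups. The rise was 4.71-fold in Col (log2 difference 2.24, SE 0.22, adjusted p = 6.2e-07) and 4.32-fold in mil4 (log2 difference 2.11, SE 0.22, adjusted p = 1.62e-06). The difference between these responses was -0.12, with a 95% interval of -0.76 to 0.51.

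UGT73D1 had the widest span of group means among the members. In Col it gave 4.24, 4.31, 4.25 and 5.57 with water, close to the floor of 4 on 3 of the 4 arrays, and 6.50, 6.94, 6.96 and 6.64 with BTH. In mil4 the values were 4.10, 5.40, 5.32 and 6.43 with water and 9.05, 8.28, 9.34 and 7.70 with BTH. No BTH array overlapped a water array of its genotype, and the 4 mil4 BTH arrays lay above the 4 Col BTH arrays. The differences were 2.17 in Col (SE 0.47, adjusted p = 0.00305) and 3.28 in mil4 (SE 0.47, adjusted p = 5.22e-05). Their size rests on the pseudocount: in Col the difference was 3.73 with a pseudocount of 1 and 1.1 with 64, and in mil4 4.37 and 2.26. Its neighbour UGT73C7, of the same phylogenetic group D, had differences of 0.35 (adjusted p = 0.679) and 0.94 (adjusted p = 0.115).

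The abscisic acid list had 3 measured genes, and their products can glucosylate that hormone in Arabidopsis. All 3 rose with BTH in mil4, where 9.67% of all probe sets rose, and 1 of them in Col, where 6.72% did. With the fluidics module as a block the adjusted p in mil4 was 0.107 for UGT71B6, 0.21 for UGT71C5 and 0.343 for UGT71B8, so that none of the 3 passed. UGT71B6 went from 6.53, 6.25, 6.77 and 5.90 to 7.35, 7.15, 7.64 and 7.57 in Col and from 6.19, 6.38, 5.47 and 5.69 to 7.49, 7.33, 8.18 and 6.98 in mil4. In each genotype the lowest BTH array lay above the highest water array. The rise was 2.09-fold in Col (log2 difference 1.07, SE 0.32, adjusted p = 0.0319) and 2.95-fold in mil4 (log2 difference 1.56, SE 0.32, adjusted p = 0.00168). In Col the test no longer called it without array 2 or 4 of Col with water or array 1, 3 or 4 of Col with BTH, where the adjusted p reached 0.115, nor with a pseudocount of 1, quantile normalization or median centring.

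UGT71C5 gave 8.79, 8.93, 8.67 and 8.37 in mil4 with water and 9.24, 9.05, 9.31 and 9.40 with BTH, a rise of 0.56 (SE 0.12, adjusted p = 0.00201) with no overlap. In Col its values also did not overlap, 8.80 to 8.89 against 9.01 to 9.12, but the difference of 0.23 did not pass (adjusted p = 0.26). UGT71B8 was under 16 on 13 of the 24 arrays. Its values ran from 4.31 to 5.37 in mil4 with water and from 5.27 to 6.66 with BTH, so that the groups overlapped, for a difference of 1.1 (SE 0.35, adjusted p = 0.0324). That call was lost without array 1 or 2 of mil4 with water or array 2, 3 or 4 of mil4 with BTH (adjusted p up to 0.142), and with median centring. With a pseudocount of 1 the difference was 1.99 (adjusted p = 0.0619), and with 64 it was 0.51.

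UGT71B1, UGT71B6 and UGT71B8 lie next to each other on chromosome 3, with at most 5 other coding genes between neighbours. All 3 rose with BTH in mil4, where 9.67% of all probe sets rose. UGT71B1 rose there by 0.94 (SE 0.30, adjusted p = 0.0312), from 7.41, 7.79, 7.82 and 6.38 to 8.50, 8.20, 8.53 and 7.94, and did not overlap. In Col its difference was -0.24 (adjusted p = 0.709). The call in mil4 was lost without array 1 or 4 of mil4 with water or array 1 or 3 of mil4 with BTH, as well as with quantile normalization or median centring. Cross-hybridization between such related genes was not tested.

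**Figure D3:**
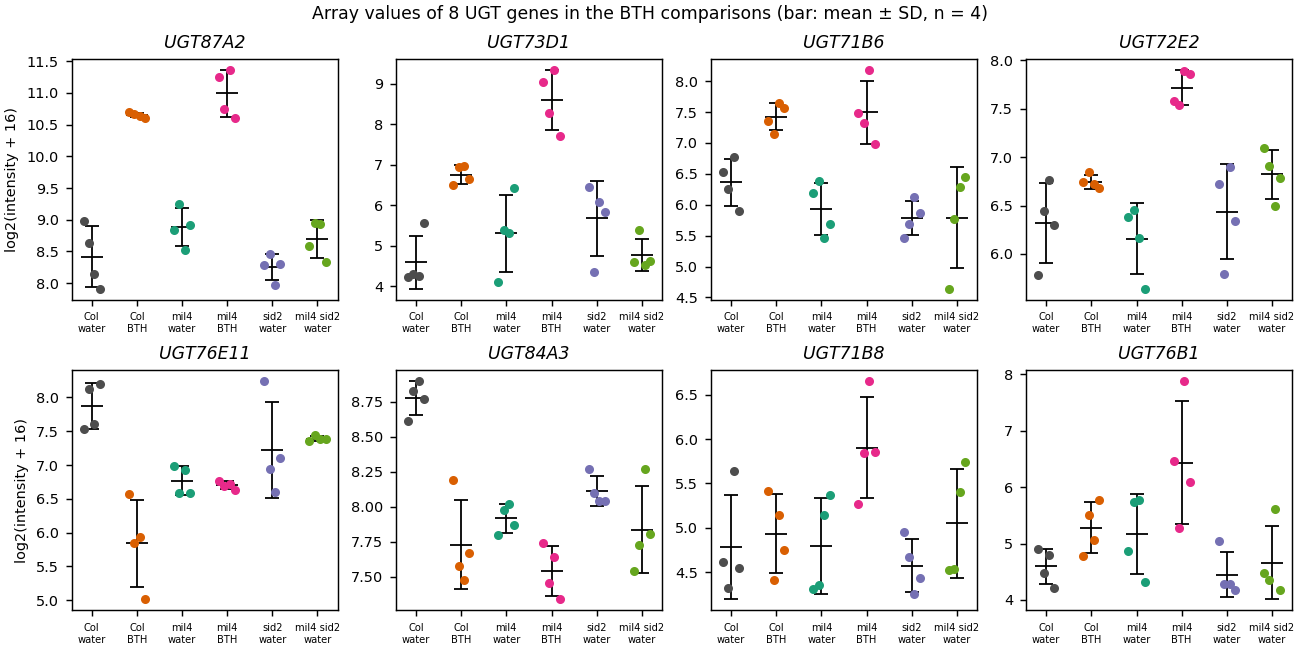
Values of 8 UGT genes on every array, as log2(intensity + 16), in the 6 groups; points are the 4 arrays in the order of replicates and bars the mean ± SD. UGT87A2 lies at 10.61 to 10.70 in Col and 10.61 to 11.36 in mil4 with BTH, above all water arrays, and UGT76E11 at 5.01 to 6.57 in Col with BTH.

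The phenylpropanoid list, whose products glucosylate hydroxycinnamic acids, sinapic acid and the lignin precursors, had 7 measured members. With BTH, 1 of them fell in Col, where 5.97% of all probe sets fell, and 2 rose in mil4, where 9.67% did. UGT84A3, which forms glucose esters of hydroxycinnamates, fell in Col from 8.61, 8.83, 8.90 and 8.77 to 8.19, 7.58, 7.48 and 7.67. All 4 BTH arrays lay below the water arrays, for a 2.07-fold decrease (log2 difference -1.05, SE 0.15, adjusted p = 7.21e-05). In mil4, where the water arrays were lower at 7.80 to 8.02, the difference was -0.37 (adjusted p = 0.103), and the difference between the responses, 0.67, did not pass (adjusted p = 0.187).

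UGT72E2, a gene of monolignol glucosylation, rose in mil4 from 6.38, 6.45, 6.16 and 5.64 to 7.58, 7.54, 7.89 and 7.86, which was 2.94-fold (log2 difference 1.56, SE 0.23, adjusted p = 5.84e-05). Its groups in mil4 were more than 1 log2 unit apart at their closest arrays. In Col the values were 5.78, 6.44, 6.76 and 6.30 and 6.74, 6.85, 6.72 and 6.68, which overlapped, for a difference of 0.43 (adjusted p = 0.261). The difference between the genotypes' responses was 1.13 (adjusted p = 0.107). UGT72E1 and UGT72E3, of the same subfamily, differed by -0.20 and 0.51 in mil4, and neither passed. UGT84A4, beside UGT84A3 on chromosome 4, rose in mil4 by 0.82 (SE 0.26, adjusted p = 0.0361), from 6.48, 7.38, 6.71 and 6.25 to 7.57, 7.51, 7.59 and 7.40. The call for UGT84A4 was lost without array 1, 3 or 4 of mil4 with water or array 1, 2 or 3 of mil4 with BTH, and with either other scaling. UGT84A1, the third neighbour, had differences of 0.22 in Col and -0.46 in mil4, neither of which passed, and UGT72B3 of -0.25 and -0.13.

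UGT76E11, whose product can glucosylate flavonols, was the member with the largest fall with BTH in Col. It went from 7.54, 8.12, 7.61 and 8.20 with water to 6.57, 5.84, 5.94 and 5.01 with BTH, a 4.08-fold decrease (log2 difference -2.03, SE 0.29, adjusted p = 5.62e-05). The 4 Col BTH arrays, with a highest value of 6.57, lay below the other 20 arrays, whose lowest value was 6.58. In mil4 the water values (6.99, 6.58, 6.92 and 6.58) and BTH values (6.77, 6.69, 6.72 and 6.63) overlapped, with a difference of -0.07 (95% interval -0.67 to 0.54). The response in mil4 minus that in Col was 1.96 (SE 0.41, adjusted p = 0.017). This was the only member with a genotype by BTH interaction, 1 of 47 higher (2.13%, against 0.51% of all probe sets) and 0 lower (against 0.497%). With the replicate number as a block in a fit of these 16 arrays alone that call was lost (adjusted p = 0.0555), and it was made in those arrays without the block and with the day, run or module as a block over all arrays. Its neighbour UGT76E12 differed by 0.96 in Col and -0.44 in mil4, neither past the test, and with an interaction of -1.40 (adjusted p = 0.358).

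The other falls with BTH were smaller. In Col, UGT78D1, which adds rhamnose to flavonols, fell by 0.66 (SE 0.15, adjusted p = 0.00397), from 9.02, 9.28, 9.05 and 9.13 to 8.61, 8.09, 8.77 and 8.40. UGT88A1 fell by 0.49 (SE 0.13, adjusted p = 0.0113), from 12.34, 12.10, 12.20 and 12.39 to 11.93, 11.36, 11.85 and 11.93, and UGT85A4 by 0.38 (SE 0.10, adjusted p = 0.0164), from 8.08, 7.84, 7.77 and 8.21 to 7.67, 7.56, 7.61 and 7.56. For each of these 3 genes the water and BTH arrays of Col did not overlap. In mil4 the same differences were 0.03, -0.25 and -0.10, none of which passed. The UGT88A1 call was lost without array 2 of Col with BTH (adjusted p = 0.0538), and that of UGT85A4 without array 1 or 4 of Col with water. All 3 calls were lost with same-numbered Col arrays taken as pairs in a fit of those arrays alone, and with the fluidics module as a block.

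In mil4, UGT76C2, a cytokinin N-glucosyltransferase gene, fell by 0.79 (SE 0.22, adjusted p = 0.0175), from 8.55, 7.99, 8.91 and 7.72 to 7.81, 7.20, 7.69 and 7.34. Its neighbour UGT76C1, of the same activity, differed by -0.18 (adjusted p = 0.369). UGT85A5 fell by 0.82 (SE 0.26, adjusted p = 0.0309), from 7.72, 7.57, 8.11 and 7.31 to 6.83, 6.73, 6.55 and 7.34, and its difference in Col was -0.75 (adjusted p = 0.059). Both genes had overlapping arrays in mil4. The call for UGT76C2 was lost without array 1 or 3 of mil4 with water or array 2 of mil4 with BTH, and that for UGT85A5 without array 1 or 3 of mil4 with water or array 1, 2 or 3 of mil4 with BTH. Within hybridization days, UGT85A5 differed by -1.56, 0.03 and -0.87 on the 3 days.

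None of the 4 measured genes of the salicylic acid and benzoate list, of 7 listed, passed with BTH, nor in any of the other 8 comparisons. With BTH, 6.72% of all probe sets rose and 5.97% fell in Col, and 9.67% rose and 7.77% fell in mil4. A count over 4 genes cannot be told from such shares. UGT74F2, UGT75B1 and UGT89A2 of that list are not among the members, so their response is not known here. UGT76B1, which glucosylates salicylic acid, isoleucic acid and N-hydroxypipecolic acid, was under 16 on 13 of 24 arrays. It gave 4.87, 5.73, 5.77 and 4.31 in mil4 with water and 6.46, 5.28, 7.89 and 6.10 with BTH, and the groups overlapped. The difference in mil4 was 1.26 (95% interval 0.35 to 2.17, adjusted p = 0.0508), and in Col 0.69 (-0.22 to 1.60, adjusted p = 0.382). UGT74F1, which forms salicylic acid 2-O-glucoside, was under 16 on 21 arrays. Its Col BTH values were 6.04, 4.69, 5.84 and 4.32, for a difference of 0.61 (adjusted p = 0.147) in Col. UGT76D1, whose product glucosylates dihydroxybenzoic acids, differed by -0.05 and 0.22, and UGT71C3, which acts on methyl salicylate, by 0.46 and 0.11 in Col and mil4. The interval of UGT76B1 in Col thus holds both no change and rises of more than 1 log2 unit.

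The stress and xenobiotic list, with 6 measured genes of 11 listed, all of subfamilies UGT73B and UGT73C, held no measured gene that passed with BTH. Their differences ran from -0.46 to 0.38 in Col and from -0.09 to 0.94 in mil4. Beside the UGT genes, 3 of the 4 measured genes of salicylic acid signalling, of 27 listed, rose with BTH in both genotypes. Of all probe sets, 6.72% rose in Col and 9.67% in mil4. SAG101, GRX480 and WRKY53 rose by 1.11, 1.32 and 0.87 in Col and by 1.03, 1.49 and 2.85 in mil4, while BSMT1, of methyl salicylate synthesis, differed by 0.19 and -0.41 and did not pass. The responses of WRKY53 differed by 1.98 (adjusted p = 0.00275). Its mean with water was lower in mil4 (7.61) than in Col (9.66, adjusted p = 6.47e-06). With BTH the means were 10.46 and 10.53 (adjusted p = 0.94). The single measured gene of UDP-sugar supply, USP, differed by 0.02 (adjusted p = 0.95) and -0.01 (adjusted p = 0.959).

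Over the 47 members, the BTH differences in Col and mil4, which rest on separate arrays, had a Pearson r of 0.69, and 32 members had the same sign. This is a description across genes, which are not independent replicates, and which share the arrays of each genotype. The same measures over all probe sets were not computed. The BTH arrays of both genotypes were in the same fluidics modules, and the water arrays of both in others. The part of this in r was not tested. Within each hybridization day, the 8 genes called in Col kept their sign on all 3 days, and of the 10 called in mil4 the exception was UGT85A5. Where the water and BTH arrays did not overlap, as for all 8 Col calls, this sign was fixed and adds no support. The same-numbered Col arrays shared a run. With the run as a block over all arrays, the 8 Col calls were all made. When only the 8 Col arrays were fitted and the replicate number was blocked, 5 of them were made, 3 higher and 2 lower. UGT78D1 (adjusted p = 0.112), UGT88A1 (0.0856) and UGT85A4 (0.16) then missed the threshold, and UGT88A1 and UGT85A4 also missed it in those arrays without the block. The Col and mil4 water and BTH arrays never shared a fluidics module, so that with the module as a block, module and BTH are separated through the sid2 and mil4 sid2 arrays. In that fit UGT87A2, UGT76E11 and UGT84A3 passed in Col, and the adjusted p of UGT73D1 was 0.333 and that of UGT71B6 0.444. Of the 10 mil4 calls, those of UGT87A2, UGT73D1 and UGT72E2 were made in that fit, and those of UGT71C5, UGT71B6, UGT71B8, UGT71B1, UGT84A4, UGT76C2 and UGT85A5 were lost, so that neither the abscisic acid genes nor the UGT71B cluster passed there. Another 2 members, both lower and not among the 10, passed in it.

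**Figure D4:**
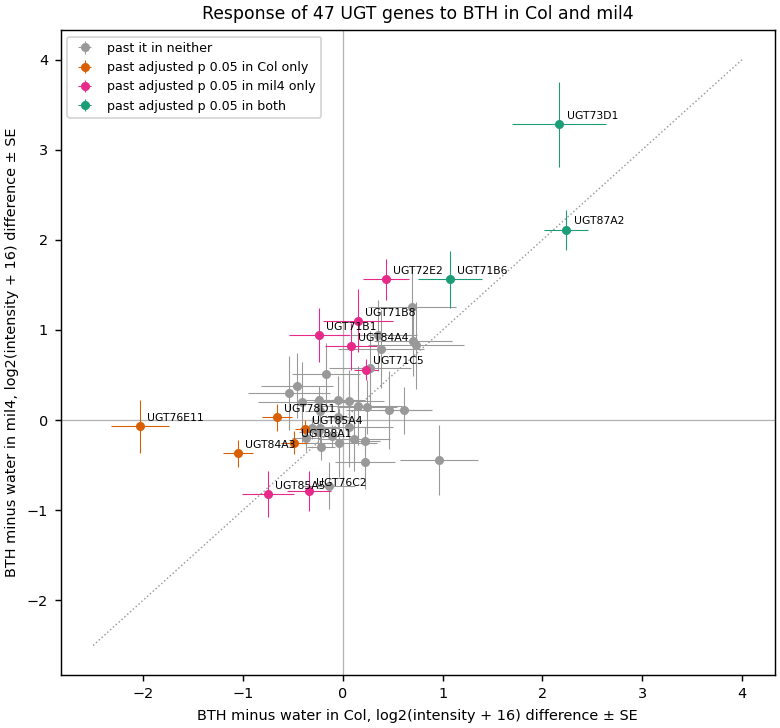
Difference of BTH minus water in mil4 (vertical) against that in Col (horizontal) for the 47 UGT genes, in log2(intensity + 16) with bars of 1 SE; the dotted line marks equal differences and colours mark where a gene passed an adjusted p of 0.05. UGT76E11 lies at -2.03 and -0.07, away from the dotted line, and UGT87A2 at 2.24 and 2.11, near it.

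With water, most of the UGT genes that differed between mil4 and Col were lower in mil4. The test called 11 of the 47 lower (23.4%, against 4.17% of all probe sets) and 1 higher (2.13%, against 3.24%), with a median of -0.14 over the members and 0.00 over all probe sets. The lower genes came from groups E (4 of 14), F (2 of 3), L (3 of 8), D (1 of 7) and H (1 of 8). All 12 had the same sign on each of the 3 days, which was fixed for genes whose Col and mil4 arrays did not overlap. Without mil4 water replicate 4, the array with the high GAPDH ratio, 7 were called, and with the run as a block, which leaves 1 run that holds both groups, 3 were called, 2 higher and 1 lower. UGT88A1 was the 1 of the 11 lower genes that passed in that fit, and the other 10 differed by -0.30 to -1.27 there.

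Flavonoid genes were among them. UGT78D1 gave 9.02, 9.28, 9.05 and 9.13 in Col and 8.13, 7.92, 8.40 and 8.10 in mil4, a 1.98-fold decrease (log2 difference -0.99, SE 0.15, adjusted p = 0.000128). UGT78D2, which adds glucose to flavonols and anthocyanidins, gave 8.63, 8.59, 8.54 and 8.52 and 8.07, 7.94, 7.93 and 7.95 (log2 difference -0.60, SE 0.15, adjusted p = 0.0124). Neither gene's groups overlapped. Their relative UGT78D3, a flavonol arabinosyltransferase gene beside UGT78D2 on chromosome 5, was under 16 on 12 arrays and differed by 0.01 (adjusted p = 0.996). UGT71C1, also on the flavonoid list, differed by -0.36 (adjusted p = 0.745), and DFR, the single flavonoid pathway gene measured of 15 listed, by 0.20 (adjusted p = 0.594). The UGT78D2 call was lost with quantile normalization (adjusted p = 0.0696).

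UGT71B1 showed the widest gap of the 12, from 9.03, 8.78, 9.14 and 8.80 in Col to 7.41, 7.79, 7.82 and 6.38 in mil4 (3-fold lower; log2 difference -1.59, SE 0.30, adjusted p = 0.00121). Every mil4 array lay below the Col arrays, and the lowest was replicate 4. UGT76E11 was lower by 1.1 in mil4 (6.58 to 6.99 against 7.54 to 8.20; log2 difference -1.1, SE 0.29, adjusted p = 0.0203), a call lost without array 2 or 4 of Col with water or array 2 or 4 of mil4 with water. UGT73B1, of the stress list, gave 7.53, 7.52, 7.76 and 7.54 in Col and 7.06, 6.64, 6.99 and 6.07 in mil4 (log2 difference -0.90, SE 0.18, adjusted p = 0.00186). It was the single gene of the 6 on that list to pass.

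UGT84A3 was lower in mil4, at 7.80 to 8.02 against 8.61 to 8.90 (log2 difference -0.86, SE 0.15, adjusted p = 0.00076), and so was UGT88A1, at 11.53 to 11.85 against 12.10 to 12.39 (log2 difference -0.60, SE 0.13, adjusted p = 0.00339). UGT72E1, which acts on monolignols and related aldehydes, gave 10.09, 10.01, 9.80 and 9.61 and 9.32, 9.25, 9.61 and 9.23, which met at 9.61 in both groups (log2 difference -0.53, SE 0.14, adjusted p = 0.0232). Of the 7 phenylpropanoid genes, UGT84A3 and UGT72E1 were called lower, as were 4.17% of all probe sets. UGT84A1, UGT84A4, UGT72B3, UGT72E2 and UGT72E3 differed by 0.44, -0.54, -0.41, -0.16 and -0.25 and did not pass. The UGT72E1 call was lost without array 1 or 2 of Col with water or array 1, 2 or 4 of mil4 with water (adjusted p up to 0.0864).

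UGT74B1, which adds glucose to thiohydroximates in glucosinolate synthesis, gave 10.78, 10.84, 10.82 and 10.15 in Col and 10.28, 10.12, 9.94 and 9.94 in mil4 (log2 difference -0.58, SE 0.16, adjusted p = 0.0328). Col replicate 4 lay in the mil4 range. Among the glucosinolate genes measured under their names, 2 of 22 listed, BCAT4 differed by -0.54 (adjusted p = 0.0301) and GSTU20 by -0.32 (adjusted p = 0.107). UGT74D1, an auxin glucosyltransferase gene, gave 8.98, 8.73, 8.66 and 8.69 and 8.14, 8.15, 8.52 and 8.16, without overlap (log2 difference -0.52, SE 0.14, adjusted p = 0.0199), and the other auxin genes UGT84B1 and UGT84B2 differed by -0.34 and -0.40 and did not pass. UGT71C4 was lower by 0.46 (9.71 to 10.41 against 10.38 to 10.65; log2 difference -0.46, adjusted p = 0.0157), with overlap. These calls were lost without certain arrays: that of UGT74B1 without array 1, 2 or 3 of Col with water or array 2, 3 or 4 of mil4 with water, that of UGT74D1 without array 1 of Col with water or array 1, 2 or 4 of mil4 with water, and that of UGT71C4 without array 3 or 4 of Col with water or array 4 of mil4 with water.

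UGT85A2 was the single member higher in mil4 with water, at 9.49, 9.79, 9.90 and 9.23 against 9.14, 8.88, 9.16 and 8.79 in Col (log2 difference 0.61, SE 0.15, adjusted p = 0.0107). The groups did not overlap. Its neighbours on chromosome 1, UGT85A3, UGT85A5 and UGT85A7, differed by 0.58, -0.02 and -0.05.

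With BTH, 3 members were higher in mil4 than in Col (6.38%, against 1.46% of all probe sets) and 2 lower (4.26%, against 1.82%). The median over the members was 0.07, and over all probe sets 0.03. UGT73D1 was higher by 1.83 (SE 0.47, adjusted p = 0.0327) and UGT72E2 by 0.97 (SE 0.23, adjusted p = 0.018), from the BTH values given above, which did not overlap. UGT85A4 was higher by 0.47 (SE 0.10, adjusted p = 0.0116), at 8.05, 8.12, 8.02 and 8.08 against 7.67, 7.56, 7.61 and 7.56. UGT73B1 was lower, at 6.98, 6.37, 6.65 and 6.39 against 7.46, 7.17, 7.30 and 7.49 (log2 difference -0.76, SE 0.18, adjusted p = 0.0178), and UGT74D1 too, at 7.91, 8.05, 7.64 and 8.18 against 8.60, 8.42, 8.61 and 8.55 (log2 difference -0.60, SE 0.14, adjusted p = 0.0149). The 2 lower genes were also lower with water, while the water differences of UGT73D1 (0.72), UGT72E2 (-0.16) and UGT85A4 (0.19) did not pass.

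Arrays decided several of these calls. That of UGT73D1 was lost without array 1, 3 or 4 of Col with BTH or array 1 or 3 of mil4 with BTH and with a pseudocount of 1 (adjusted p = 0.34). That of UGT72E2 was lost without array 3 or 4 of Col with BTH or array 3 of mil4 with BTH, that of UGT73B1 without array 1 or 4 of Col with BTH or array 2 or 4 of mil4 with BTH, and that of UGT74D1 without array 3 of Col with BTH or array 3 of mil4 with BTH. Without Col BTH replicate 3 or mil4 BTH replicate 3, 2 members were called, and with the run as a block, which leaves 1 run that holds both groups, 0.

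In sid2 with water, 4 members were higher than in Col (8.51%, against 6.64% of all probe sets) and 8 lower (17.0%, against 6.82%). In mil4 sid2, 3 were higher (6.38%, against 7.03%) and 7 lower (14.9%, against 6.58%). The member medians were -0.06 and 0.08, beside 0.09 and 0.07 over all probe sets. These comparisons and that of mil4 with Col share the 4 Col water arrays, as does the BTH comparison in Col. Genotype and hybridization day cannot be told apart in both. With the day as a random block the counts were the same, but no day held both Col arrays and arrays of these genotypes. That fit therefore cannot separate genotype from day. The GAPDH 3′ to 5′ ratios moved with this contrast: they were 1.102 to 1.227 in sid2 and 1.079 to 1.109 in mil4 sid2, all above the 0.699 to 0.966 of Col with water. Their part in these differences was not tested.

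UGT85A4 was higher in both sid2 genotypes than on any Col or mil4 array. Its values were 8.98, 9.01, 8.89 and 9.01 in sid2 and 8.87, 8.97, 9.00 and 9.10 in mil4 sid2, against 7.77 to 8.21 in Col and 7.94 to 8.38 in mil4 with water. The differences from Col were 1.0 (SE 0.10, adjusted p = 8.05e-07) and 1.01 (SE 0.10, adjusted p = 5.47e-07). UGT85A2 was also higher, at 10.34, 9.88, 9.96 and 9.73 in sid2 (log2 difference 0.98, SE 0.15, adjusted p = 6.68e-05) and 9.54, 9.78, 9.68 and 9.64 in mil4 sid2 (log2 difference 0.67, SE 0.15, adjusted p = 0.00316), without overlap with Col. UGT85A3 was higher in sid2, at 7.22, 6.83, 6.67 and 6.58 against 5.75, 4.91, 5.96 and 5.79 in Col (log2 difference 1.22, SE 0.30, adjusted p = 0.00703), and differed in mil4 sid2 by 0.70 (adjusted p = 0.136). Thus 3 of the 5 group G genes were higher in sid2, where 6.64% of all probe sets were. In mil4 sid2 2 were higher, where 7.03% of all probe sets were. UGT85A5 and UGT85A7 differed by 0.65 and 0.69 in sid2. UGT71C5 was higher by 0.38 (adjusted p = 0.0373) and 0.42 (adjusted p = 0.0189). In sid2 that call was lost without array 1, 2, 3 or 4 of Col with water or array 1, 2 or 4 of sid2, as well as with median centring, and in mil4 sid2 without array 2 or 4 of mil4 sid2.

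The glucosinolate gene UGT74B1 was lowest in the sid2 genotypes, at 9.87, 9.56, 9.18 and 9.33 in sid2 and 9.61, 9.22, 9.26 and 9.42 in mil4 sid2. All 8 of these arrays lay below all arrays of Col and mil4. The differences from Col were -1.16 (SE 0.16, adjusted p = 3.62e-05) and -1.27 (SE 0.16, adjusted p = 1.07e-05), or 2.24-fold and 2.41-fold. BCAT4, which starts the chain elongation of methionine, differed by -0.57 (adjusted p = 0.0132) and -0.99 (adjusted p = 8.39e-05). GSTU20, the other measured gene of the glucosinolate list, differed by -0.65 (adjusted p = 0.000415) and -1.11 (adjusted p = 6.04e-07).

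UGT78D1 was lower by 1.01 in sid2, from its Col values to 7.85, 8.29, 8.08 and 8.25 (log2 difference -1.01, SE 0.15, adjusted p = 5.36e-05), and gave 8.32, 8.07, 7.96 and 8.23 in mil4 sid2 (log2 difference -0.98, SE 0.15, adjusted p = 6.9e-05). UGT78D2 gave 7.21, 7.71, 7.79 and 8.18 in sid2 (log2 difference -0.85, SE 0.15, adjusted p = 0.000348) and 7.61, 7.44, 7.35 and 7.54 in mil4 sid2 (log2 difference -1.09, SE 0.15, adjusted p = 2.09e-05). UGT88A1 lay at 11.28 to 11.67 in sid2 (log2 difference -0.80, SE 0.13, adjusted p = 0.000122) and 11.18 to 11.45 in mil4 sid2 (log2 difference -0.96, SE 0.13, adjusted p = 1.2e-05). No array of these 3 genes in either genotype reached the Col water range. UGT71B1 was lower in sid2, at 6.77, 8.19, 7.81 and 7.87 (log2 difference -1.27, SE 0.30, adjusted p = 0.00512), and in mil4 sid2, at 8.50, 8.61, 8.28 and 8.52, its difference of -0.46 did not pass (adjusted p = 0.37).

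The remaining lower genes were UGT84A3, UGT72E1 and UGT74D1, in both genotypes. UGT84A3 differed from Col by -0.66 in sid2 (8.04 to 8.27) and -0.94 in mil4 sid2 (7.54 to 8.27), with adjusted p-values of 0.00477 and 0.000162. UGT72E1 differed by -0.61 (8.96 to 9.41) and -0.61 (9.16 to 9.45), with adjusted p-values of 0.00476 and 0.00528. UGT74D1 differed by -0.53 (7.94 to 8.55) and -0.91 (7.71 to 8.01), with adjusted p-values of 0.0108 and 6.7e-05. In all 3 genes every sid2 and mil4 sid2 array lay below the lowest Col water array.

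**Figure D5:**
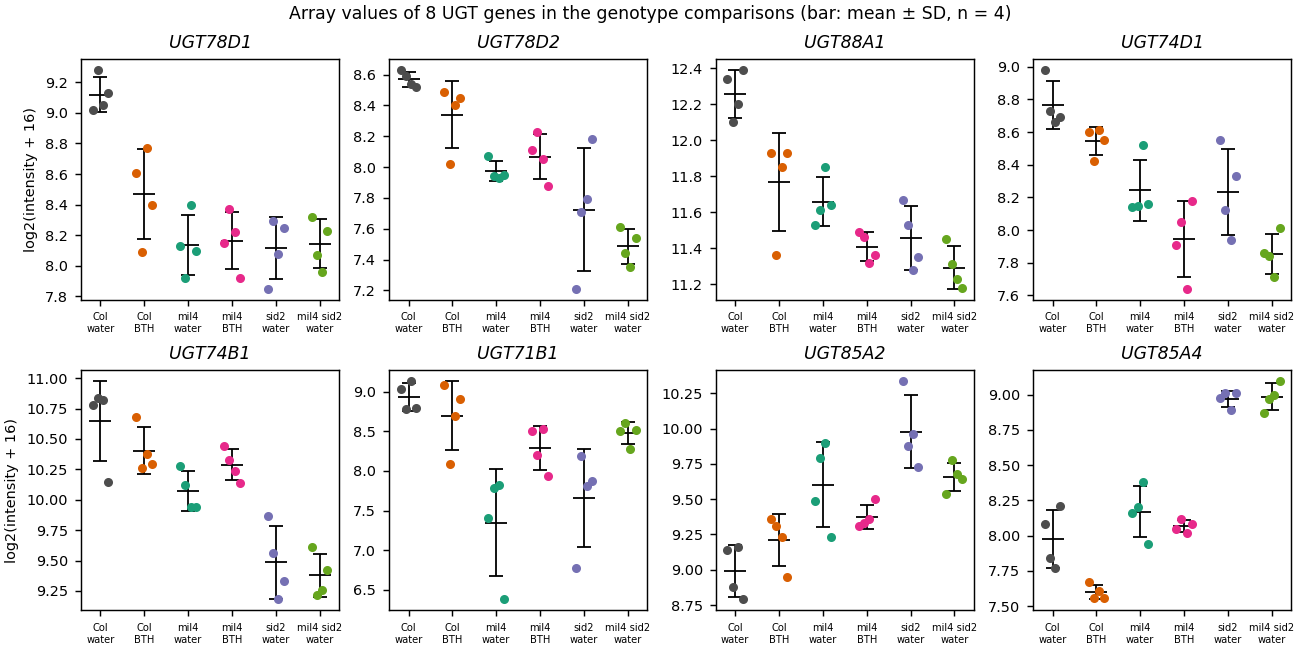
Values of 8 UGT genes on every array, as log2(intensity + 16), in the 6 groups; points are the 4 arrays in the order of replicates and bars the mean ± SD. UGT78D1 lies at 9.02 to 9.28 in Col with water and below that on the other 20 arrays, and UGT85A4 at 8.89 to 9.01 in sid2 and 8.87 to 9.10 in mil4 sid2, above the other 16 arrays.

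For 5 members (10.6%, against 1.38% of all probe sets), all 4 Col water arrays lay above the other 20 arrays, and for 0 they lay below (against 0.774%). The 5 were UGT78D1, UGT78D2, UGT74D1, UGT88A1 and UGT84A3. This count was made after the values had been seen, and it rests on the Col water arrays that all comparisons with that group share. For UGT78D1 the highest of the other arrays was 8.77, in Col with BTH, against a lowest Col water value of 9.02. For UGT78D2 the same values were 8.49 and 8.52.

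Between mil4 sid2 and mil4 with water, 4 members were higher (8.51%, against 2.75% of all probe sets) and 1 lower (2.13%, against 2.82%), with medians of 0.09 over the members and 0.07 over all probe sets. Over all probe sets 49.4% of these calls were higher, against 32.8% with median centring. UGT85A4 was higher by 0.81 (SE 0.10, adjusted p = 5.01e-05) and UGT71C5 by 0.56 (SE 0.12, adjusted p = 0.00655). UGT71B1 was higher by 1.13 (SE 0.30, adjusted p = 0.0267), with no overlap between 8.28 to 8.61 and 6.38 to 7.82. UGT71C4 differed by 0.39 (adjusted p = 0.0498), at 10.34 to 10.53 against 9.71 to 10.41, with overlap. UGT74B1 was lower by 0.69 (log2 difference -0.69, SE 0.16, adjusted p = 0.0143). The calls were lost for UGT71B1 without array 1 or 4 of mil4 with water or array 1, 2 or 4 of mil4 sid2, for UGT71C4 without array 1, 2 or 4 of mil4 with water or array 1, 2, 3 or 4 of mil4 sid2 and for UGT74B1 without array 1 of mil4 with water or array 2 of mil4 sid2. That of UGT71B1 was also lost with quantile normalization, and that of UGT71C4 with median centring or the day as a random block. No day held arrays of both groups, so genotype and day cannot be told apart here, and the random block cannot separate them. The calls of UGT71C5, UGT71C4 and UGT71B1 were lost with the fluidics module as a block and with the groups compared alone.

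Between mil4 sid2 and sid2, which were hybridized on the same day, limma called 0 members higher (against 0.198% of all probe sets) and 0 lower (against 0.273%). At an unadjusted p under 0.05 there were 4, UGT71B1 (0.82), UGT85A7 (-0.61), UGT74D1 (-0.38) and UGT85A2 (-0.32). The median over the members was 0.04, and over all probe sets -0.01. For UGT78D1 the difference was 0.03, with a 95% interval of -0.28 to 0.33, and for UGT85A4 0.01, with -0.20 to 0.23.

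The effect of mil4 on the sid2 background minus its effect on the Col background was tested as an interaction, in which each difference lies within its own days. It was higher for 3 members (6.38%, against 2.86% of all probe sets) and lower for 1 (2.13%, against 2.46%), with a median of 0.23 over the members and -0.01 over all probe sets. For UGT71B1 the mil4 effect was -1.59 without sid2 and 0.82 with it, and the interaction 2.40 (SE 0.42, adjusted p = 0.000937). For UGT78D1 the effects were -0.99 and 0.03 (interaction 1.01, SE 0.21, adjusted p = 0.00403). For UGT71C4 they were -0.46 and 0.14 (interaction 0.60, SE 0.16, adjusted p = 0.0344). UGT85A2 went the other way, with 0.61 and -0.32 (interaction -0.93, SE 0.21, adjusted p = 0.00843). The UGT71C4 call was lost without array 3 or 4 of Col with water or array 1 or 4 of mil4 with water or array 2, 3 or 4 of mil4 sid2 or array 2, 3 or 4 of sid2. Each of the other 3 calls was made with any 1 of the 16 arrays left out. With the run as a block the calls of UGT78D1 (adjusted p = 0.181) and UGT71C4 (adjusted p = 0.291) were lost, and 1 member was higher and 2 lower. Without sid2 replicate 1, 5 members were called, and without mil4 water replicate 4, 3.

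In 13 clusters of 2 to 4 genes, 31 of the 47 members lie near another member. The UGT71B cluster was the only cluster in which all measured members passed with BTH in mil4, where 9.67% of all probe sets rose. None of its members passed there with the fluidics module as a block, or with the replicate number as a block in the mil4 arrays alone. Of the UGT85A cluster on chromosome 1, UGT85A2 and UGT85A3 were higher in sid2 than in Col, while UGT85A5 fell with BTH in mil4. In the UGT71C cluster on that chromosome, UGT71C5 rose with BTH in mil4 and UGT71C4 differed by -0.09 (adjusted p = 0.679), while UGT71C3 differed by 0.11 (adjusted p = 0.909). UGT84A3 and UGT84A4 passed in opposite directions, the former in Col (-1.05) and the latter in mil4 (0.82).

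Of the 24 members that passed in no comparison, 12 were under 16 on 12 arrays or more. They include UGT73B4, UGT73C1, UGT73C2, UGT71C2, UGT72E3, UGT76E1 and UGT84A1, which were each under 16 on 14 to 20 arrays, so that their differences rest on values near background. UGT76C1 and UGT80B1 were never under 16 and had group means within 7.79 to 8.05 and 9.04 to 9.17. For UGT80B1 the 95% interval of the BTH difference was -0.33 to 0.22 in Col and -0.24 to 0.30 in mil4.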

How the data were processed

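Per the labels' protocols, cRNA was labelled with biotin from 15 µg of Trizol-extracted RNA. The authors deposited probe-set intensities on a linear scale, 24 columns of 22810 probe sets, scaled on each array to a 2% trimmed mean of 500 (500.0 to 500.1), as the values show. The software and the background correction are not given in the sources read, and detection calls were not used. Each array has a settings file, whose hybridization fields gave the time and the fluidics module (4). The time gave the day (4). The files name no run: arrays whose hybridization times lay within minutes of each other were grouped here as a run (8).

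The 64 control probe sets were left out, and 22746 were tested as log2(intensity + 16). Gene symbols were read from GEO's platform annotation, which gives 1 symbol to 13513 of these probe sets, several to 503 and none to 8730. Limma 3.58.1 in R 4.3.3 fitted 6 group means over all 24 arrays (lmFit, contrasts.fit and eBayes, 2-sided tests). The p-values of each comparison were adjusted by Benjamini-Hochberg over all 22746 probe sets. The fit was tested on simulated data with known changes and independent arrays. Those data held no day, run, module or pair effect, so that test does not bear on such effects. Tables and plots were made with Python 3.11.15, pandas 2.3.3, numpy 2.4.6 and matplotlib 3.10.9.

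Arrays were given for members past the threshold without overlap, up to the 8 largest each way for BTH in Col, BTH in mil4 and mil4 against Col with water, and up to 5 each way elsewhere, with members of the role lists named in any case. Members and lists were chosen with earlier results of these data known. Clusters are members with at most 5 other coding genes between them. For Col with water and with BTH, deviations of same-numbered arrays correlated at 0.17 to 0.34 over 9657 probe sets in 4 of 4 pairs, which also shared a run, so these were taken as pairs in a fit of these arrays alone. No other comparison passed this check, although same-numbered mil4 arrays with water and BTH, and mil4 sid2 and sid2 arrays, also shared a run. Alternatives were pseudocounts of 1 and 64, quantile normalization, median centring, the brighter probe sets alone, the compared groups alone, blocks for replicate number, day, run and module, and each array left out. The precision is limited by 4 arrays per group.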

Additional observations from a re-analysis of the deposited data

Results flagged for a closer look

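Arrays that lay far from the other 3 of their group were looked for in the 23 called members, over 138 groups of 4 arrays. By Dixon's 95% critical value for 4 values, 8 groups (5.8%) held such an array, and chance gives about 1 in 20. They were UGT73B1 in Col with water (7.76) and in sid2 (7.74, replicate 1, the array with the fewest dim probe sets), UGT73D1 in Col with water (5.57) and in mil4 sid2 (5.38), UGT74B1 in Col with water (10.15), UGT74D1 in mil4 with water (8.52), UGT78D2 in mil4 with water (8.07) and UGT88A1 in Col with BTH (11.36). The calls of UGT73D1 with BTH in Col, and of UGT78D2, UGT73B1 and UGT74D1 between mil4 and Col with water, were made with the Col or mil4 water array named here left out. For UGT74B1 in mil4 against Col, leaving out other arrays ended the call, and for UGT88A1 with BTH in Col, leaving out that array, Col BTH replicate 2, gave an adjusted p of 0.0538.

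The response to BTH differed between mil4 and Col for UGT76E11, by 1.96. The effect of mil4 with water differed between the sid2 and Col backgrounds for UGT71B1 (2.40), UGT78D1 (1.01), UGT71C4 (0.60) and UGT85A2 (-0.93). Each of these 5 differences was itself tested, as an interaction in limma.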

How the results depend on the processing

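No call of a member turned its direction under any alternative run. Members called in the reported fit and under the alternatives that moved the count by over 1.5 times were as follows. For BTH in Col, 8 became 5 with the replicate block, fitted on the groups compared alone, and 3 with the fluidics module as a block. For BTH in mil4, 10 became 6 in the brighter probe sets, 4 with the groups compared alone, 2 with the replicate block and 5 with the module. The genotype by BTH interaction, 1 as reported, gave 2 with a pseudocount of 64, 0 in the brighter probe sets, where UGT76E11 was not tested, and 0 with the replicate block. For mil4 against Col with water, 12 became 6 with the groups alone, 1 with the replicate block and 3 (2 higher, 1 lower) with the run. For mil4 against Col with BTH, 5 became 2 in the brighter probe sets, 2 with the groups alone, 0 with the replicate block and 0 with the run. For sid2 against Col, 12 became 4 with the replicate block. For mil4 sid2 against mil4, 5 became 9 in the brighter probe sets, 3 with the groups alone, 0 with the replicate block and 3 with the module. Every replicate block was fitted on the groups compared alone. Same-numbered arrays also shared a run in mil4 with water and BTH and in mil4 sid2 and sid2, but their deviations did not correlate above 0.1 in every pair, and in the other comparisons they shared a number and no run. In mil4, UGT87A2 and UGT72E2 passed with that block, and none of the 3 abscisic acid genes did. With each array left out in turn, the counts ran from 7 to 8 for BTH in Col, 6 to 10 for BTH in mil4 (6 without mil4 water replicate 1 or mil4 BTH replicate 3), 1 to 2 for the genotype by BTH interaction (2 without Col BTH replicate 1), 7 to 11 for mil4 against Col with water, 2 to 6 for mil4 against Col with BTH (3 without Col BTH replicate 4), 11 to 13 for sid2 and 9 to 11 for mil4 sid2 against Col, 2 to 6 for mil4 sid2 against mil4 (2 without mil4 sid2 replicate 2; 3 without mil4 sid2 replicate 1 or 4, or mil4 water replicate 1 or 4), 0 to 0 for mil4 sid2 against sid2, and 3 to 5 for the mil4 by sid2 interaction. Over all probe sets, 50.7% of the genotype by BTH interactions were higher, and 37.8% with median centring. The cause of these changes was not tested. No alternative was run on several probe sets of a gene or on probe sets that bind several transcripts, since no member had such a probe set. Values near background limit the 13 members that were under 16 on 12 arrays or more.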
